A study of Mus musculus with 5 samples.

Results

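The genes described here are 10 components of the circadian clock: Arntl (also called Bmal1), Clock, Npas2, Per1, Per2, Per3, Cry1, Cry2, Nr1d1 and Dbp. They were chosen by name, and every probe set that the platform annotation assigns to 1 of them and to no other gene was taken. Any probe set listed under several gene symbols was left out. This gave 16 probe sets out of 22626 that are not array controls, and 10 genes out of 12393. All 10 genes were on the array: 5 had 1 probe set, 4 had 2, and Per3 had 3. The study compared tibio-femoral joints of male mice that lack both epiphycan (Epyc) and biglycan (Bgn), small proteoglycans of cartilage and other connective tissue, with those of wildtype males, all 3 months old and hybrids of C57/Bl6 and 129. Each of the 5 arrays held RNA pooled from 3 mice (6 joints), so a replicate is a pool of animals, and there were 2 wildtype and 3 double-null pools. The whole joint was used, with its cartilage, bone, marrow, muscle and tendon. In such a mixture, fewer cells of a type and less RNA per cell cannot be told apart. The labels give no time of day at which tissue was taken.

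The mammalian clock is a feedback loop of transcription. ARNTL pairs with CLOCK, or with its relative NPAS2, and the pair binds E-box sequences and switches on the Per and Cry genes, Nr1d1 and Dbp. PER and CRY proteins return to the nucleus and silence the pair, while the nuclear receptor encoded by Nr1d1 represses Arntl through ROR elements. In a tissue whose clock runs, Arntl and Npas2 messages therefore peak at about the opposite time of day from those of Per1, Per2, Per3, Nr1d1 and Dbp, so the balance between these arms carries information on the sampling time. Cartilage, bone, tendon and muscle are all known to hold running clocks.

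Promoter windows of the members were searched for control sequences of this loop, and only the windows with a match are shown. RefSeq windows of 300 bases (250 before to 50 after an annotated start, GRCm38.p6) were given for 9 of the 10 members, 13 windows in all. Each line is read 5′ to 3′ on the strand of the gene, in lower case, with motif matches in capitals.
Arntl, second listed start (chr7:113207261-113207560, + strand): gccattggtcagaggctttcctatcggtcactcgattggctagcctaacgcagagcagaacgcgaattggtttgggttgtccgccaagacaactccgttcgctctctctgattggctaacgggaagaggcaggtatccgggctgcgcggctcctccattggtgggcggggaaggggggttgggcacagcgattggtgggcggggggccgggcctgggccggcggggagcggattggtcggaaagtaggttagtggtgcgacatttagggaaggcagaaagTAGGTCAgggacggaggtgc
Per1, upstream start (chr11:69098699-69098998, + strand): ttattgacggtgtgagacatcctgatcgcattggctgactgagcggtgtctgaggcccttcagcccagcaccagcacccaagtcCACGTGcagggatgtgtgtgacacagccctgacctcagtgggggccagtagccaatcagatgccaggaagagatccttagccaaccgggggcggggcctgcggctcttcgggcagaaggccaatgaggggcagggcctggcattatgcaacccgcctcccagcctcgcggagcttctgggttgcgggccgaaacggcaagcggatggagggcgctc
Per1, downstream start (chr11:69099902-69100201, + strand): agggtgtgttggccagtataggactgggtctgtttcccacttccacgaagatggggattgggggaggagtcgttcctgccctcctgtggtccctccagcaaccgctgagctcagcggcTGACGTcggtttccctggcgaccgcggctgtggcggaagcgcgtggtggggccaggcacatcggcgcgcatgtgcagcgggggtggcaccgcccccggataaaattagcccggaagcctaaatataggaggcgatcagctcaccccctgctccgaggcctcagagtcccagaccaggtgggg
Per3 (chr4:151044616-151044915, - strand): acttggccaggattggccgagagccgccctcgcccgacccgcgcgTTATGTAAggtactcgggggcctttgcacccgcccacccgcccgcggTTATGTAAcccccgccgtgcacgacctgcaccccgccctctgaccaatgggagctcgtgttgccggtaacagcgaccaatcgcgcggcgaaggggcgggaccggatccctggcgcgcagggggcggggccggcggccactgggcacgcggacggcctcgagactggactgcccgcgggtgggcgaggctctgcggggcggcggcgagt
Cry1 (chr10:85185005-85185304, - strand): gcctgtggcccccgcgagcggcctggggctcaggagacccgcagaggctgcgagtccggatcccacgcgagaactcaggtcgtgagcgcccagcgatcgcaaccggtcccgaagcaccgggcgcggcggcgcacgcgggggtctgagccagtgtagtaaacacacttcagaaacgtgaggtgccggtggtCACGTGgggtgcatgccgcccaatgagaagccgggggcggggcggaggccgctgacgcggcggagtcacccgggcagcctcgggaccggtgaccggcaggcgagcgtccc

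Both strands of each window were searched for 5 motifs, and none of the matches found overlapped another. The E-box CACGTG was in the upstream Per1 window, 166 bases before the start, and in the Cry1 window, 60 bases before it, which is 2 of 13 member windows (15.4%) against 7.15% of all 32851 promoter windows. The D-box TTANGTAA, the element that DBP and its relatives bind, was in the Per3 window at 205 and 158 bases before the start. It was in 2.32% of all windows. The ROR element core TAGGTCA began at base 31 after the second Arntl start, and 2.61% of all windows held it. The core TGACGT of a cyclic AMP response element lay 132 bases before the downstream Per1 start (7.51% of all windows), and the glucocorticoid receptor core TGTTCT was in 0 of 13 member windows (19.0% of all windows). The windows of Clock, Npas2, Nr1d1, Dbp and Cry2 held none of the 5 motifs, and Per2 had no window. The matches therefore do not set the arms apart. A match describes letters in a short window, not a site in use, and elements outside these windows were not searched.

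The values are MAS5 signals, the summary brightness of a probe set on a linear scale, deposited as 2 tables with the same probe sets. The table called array type A here, or type A, holds wildtype pool 2 with double-null pool 3. The other, type B, holds wildtype pool 1 together with double-null pools 1 and 2. Median signals per array ran from 106 to 120, and the ratio of 3′ to 5′ probe sets of actin from 1.08 to 1.25. The same ratio for Gapdh differed between the tables, at 0.85 and 0.89 in type A and 1.03 to 1.04 in type B. Its bearing on the clock genes was not tested. Background was taken from 27 control probe sets for Bacillus genes, the highest of which read 27.5 to 63.5 per array. The deleted genes followed the labels: the brightest Bgn probe set read 4063 and 2356 in the wildtype pools and 45.8, 7.05 and 9.92 in the double-null pools, and Epyc read 91.2 and 78.8 against 10.8, 3.38 and 1.29. Their position relative to the deletions was not tested. Of tissue markers fixed for this work, the 6 of cartilage summed to between 10772 and 21722 per array, and the 6 of muscle to between 25973 and 59107. Of 4 genes of liver and brain fixed as absent, Apoa1 was above background on 0 arrays and Alb (26.9 to 62.4) on 3, but Gfap (89.0 to 172) and Syn1 (97.0 to 197) were on all 5.

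Genotype differences are log2 differences, double-null minus wildtype, of log2(signal + 32) after quantile normalisation, from a limma fit to all 22626 probe sets with array type as a term. A fold is 2 to the power of that difference, so it understates the change of dim probe sets. None of the 16 clock probe sets passed the threshold of 0.05 after Benjamini-Hochberg adjustment in limma (0 of 16, lowest adjusted p = 0.79), where 6 of all probe sets passed (0.0265%). At an unadjusted limma p under 0.05 there was 1 of 16 clock probe sets, that of Per1, against 1211 of all 22626 probe sets. The clock differences were split evenly, 8 above and 8 below zero, with a median of 0.00086, against -0.0039 over all probe sets. Every double-null array lay below both wildtype arrays on the normalised scale for 1 clock probe set, again Per1, against 9.93% of all probe sets, and above both for 0 of 16, against 9.24%. Exact permutation of 2 against 3 arrays cannot go below p = 0.1 for a single probe set. Of the 16 probe sets, 10 exceeded the highest Bacillus control on all 5 arrays (62.5%, against 63.4% of all probe sets), among them the brightest of each gene but Npas2.

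**Figure D1:**
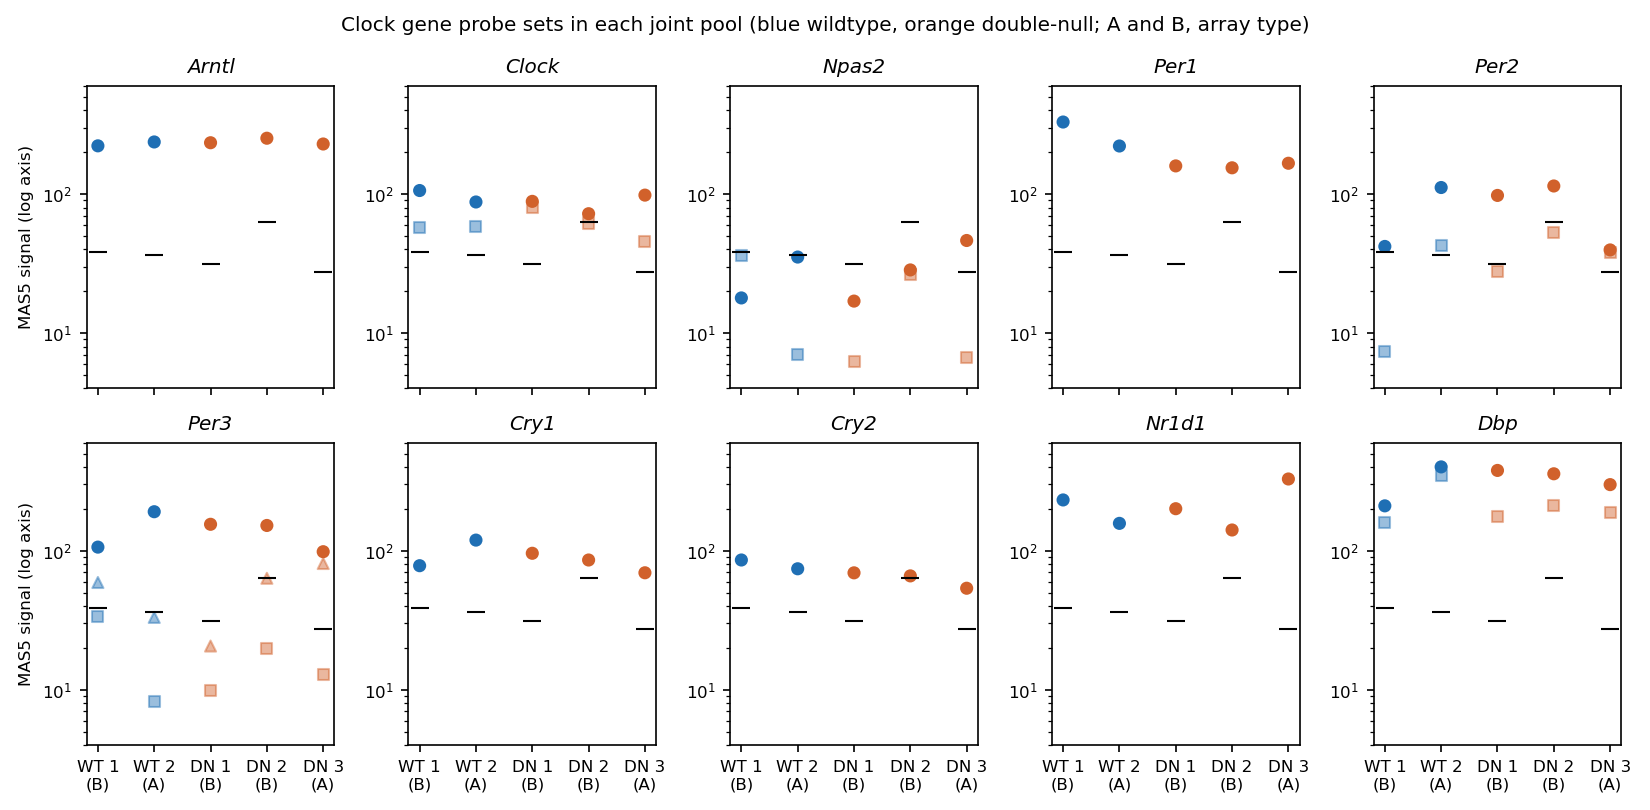
MAS5 signal (log axis) of every clock gene probe set in each of the 5 pools, blue for wildtype and orange for double-null; circles are the brightest probe set of a gene, faded squares and triangles its others, and black dashes the highest Bacillus control on that array. Arntl stays between 223 and 253 in every pool, the 3 double-null values of Per1 lie below both wildtype values, and the brightest probe sets of Per2 and Per3 are lowest in wildtype pool 1 and double-null pool 3, an order their other probe sets do not share.

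Arntl, the activating factor without which the clock stops, was the steadiest of the members. Its single probe set read 223 and 237 in wildtype pools 1 and 2, and 234, 252 and 229 in double-null pools 1 to 3. The groups overlapped, and the highest pool was 1.13 times the lowest. The difference was 0.063 (1.04-fold, 95% interval 0.79 to 1.38-fold, limma adjusted p = 0.99). The span of Arntl over the 5 arrays was 0.17 on the normalised log2 scale, the smallest of the 16 probe sets, where the median span was 0.80 for the clock probe sets and 0.55 for all.

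Clock, the partner of ARNTL, is a gene whose message is usually near constant through the day. Its brighter probe set read 106 and 87.8 in the wildtype pools and 88.7, 72.3 and 98.4 in the double-null pools, and the groups overlapped. The dimmer one read 57.8 and 58.7 against 80.7, 62.0 and 45.3, with double-null pools both highest and lowest. Their differences were -0.080 and 0.052, with opposite signs. Npas2, which can take the place of Clock, was at background: its probe sets read 17.9 and 35.2 against 17.0, 28.5 and 46.4, and 36.2 and 7.07 against 6.20, 26.2 and 6.72. Only double-null pool 3, on 1 of them, exceeded its array's highest control, so neither difference (0.17 and -0.29) measures expression with confidence.

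Per1, a repressor that also responds to glucocorticoids and cyclic AMP within hours, was the member that stood lowest in the double-null joints. It read 330 and 222 in wildtype pools 1 and 2 (276 ± 76.6, mean ± SD, n = 2) and 160, 155 and 167 in double-null pools 1 to 3 (160 ± 6.09, n = 3). The groups did not overlap, and the 3 double-null pools lay within 0.11 of each other on the log2 scale while the wildtype pools were 0.53 apart. The difference was -0.67 ± 0.20 (SE), a 0.63-fold level with an interval from 0.45 to 0.88-fold before any allowance for the number of probe sets. The unadjusted p was 0.014, and limma's adjusted p was 0.79, so Per1 did not pass. Within type A it was -0.37 and within type B -0.90, and the lowest limma adjusted p over 17 alternative settings was 0.37.

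Per2, a repressor that closes the loop together with CRY proteins, moved more between pools of 1 genotype than between genotypes. Its brighter probe set read 42.0 in wildtype pool 1 and 112 in wildtype pool 2, and 97.9, 114 and 39.7 in double-null pools 1 to 3. Wildtype pool 1 and double-null pool 3 were thus low and the other 3 pools high, 2.89-fold between the extremes, and each genotype held both kinds. The difference was 0.13 (limma adjusted p = 0.99), made of -1.02 within type A and 0.99 within type B. Its dimmer probe set read 7.34 and 42.7 against 27.6, 53.0 and 37.8, near background, and also had wildtype pool 1 lowest.

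Per3, a paralogue of Per1 and Per2 that follows the clock in most tissues, gave a like order of pools on its brightest probe set. The signals were 106 and 191 in the wildtype pools and 155, 152 and 98.5 in the double-null pools, so that wildtype pool 1 and double-null pool 3 were again the lowest. The difference was -0.050, with -0.79 within type A and 0.50 within type B. The other 2 probe sets of Per3 did not share this order. They read 59.1 and 33.1 against 20.6, 63.4 and 81.0, and 33.6 and 8.20 against 9.84, 19.8 and 12.8, and the last was below the highest control on every array.

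The cryptochromes are the other repressors of the loop. Cry1 read 78.1 and 119 in the wildtype pools and 95.9, 85.8 and 69.5 in the double-null pools, with double-null pool 3 and wildtype pool 1 lowest (difference -0.11, limma adjusted p = 0.99). Cry2 read 85.8 and 74.2 against 69.4, 66.0 and 53.7. The deposited Cry2 signals did not overlap, but after quantile normalisation double-null pool 1 lay above wildtype pool 2. Its difference was -0.23, with -0.34 within type A, -0.14 within type B and limma adjusted p = 0.97.

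Nr1d1, the repressor of Arntl, had its highest values in the pools where Per2 and Per3 were lowest. It read 232 and 157 in the wildtype pools and 201, 141 and 329 in the double-null pools, highest in double-null pool 3 and next in wildtype pool 1. The groups overlapped, and the difference of 0.20 came from 0.94 within type A and -0.36 within type B (limma adjusted p = 0.99). Nr1d1 overlaps the thyroid hormone receptor gene Thra on the opposite strand, and which strand this probe set reads is not given here.

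Dbp, a transcription factor driven directly by the ARNTL and CLOCK pair and usually among the most rhythmic messages, was highest in wildtype pool 2 and lowest in wildtype pool 1 on both of its probe sets. The brighter read 211 and 401 in wildtype pools 1 and 2 and 379, 358 and 299 in the double-null pools. The other read 161 and 348 against 178, 212 and 188. The double-null pools lay inside the span of the wildtype pools on both, and the differences had opposite signs, 0.25 and -0.18 (limma adjusted p = 0.98 and 0.99). The name of the brighter probe set carries the suffix that Affymetrix gives to probes shared by several transcripts, so other RNAs may add to it.

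For most members the genotype difference had opposite signs in the 2 tables, which hold different pools, so that table and pool cannot be told apart. The sign in type A, which holds 1 pool of each genotype, was opposite to that on type B for 12 of 16 probe sets (75%), against 51.8% of all probe sets. Each sign uses a different wildtype pool. This count and the gap between those pools, given below, are therefore not separate observations. By brightest probe sets the share was 70% for the clock genes. It ran from 0% (tendon) to 80% (neutrophil) over the small lists of tissue markers, with muscle at 66.7%. Among the brightest probe sets, only Npas2, Per1 and Cry2 had 1 sign on both types. Of the 5 genes with over 1 probe set, 4 (Clock, Npas2, Per3 and Dbp) had probe sets of opposite sign in the fit of all arrays, and Per2 had the same sign on both.

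**Figure D2:**
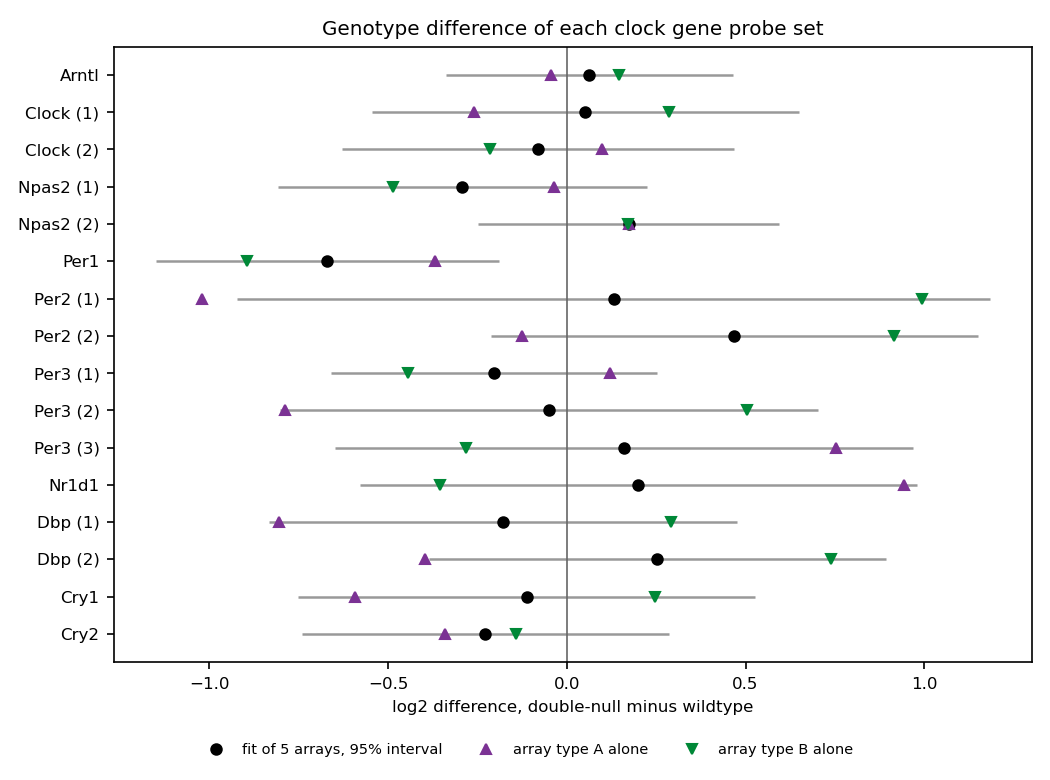
Log2 difference, double-null minus wildtype, of the 16 clock gene probe sets, from the fit of 5 arrays (black points, grey lines for the 95% interval) and on array types A and B alone (triangles); probe sets of a gene are numbered. Per1 lies to the left on both types, while Per2, Per3, Nr1d1 and Dbp change sides between types, as Per2 (1) does between -1.02 (type A) and 0.99 (type B).

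The 2 wildtype pools differed from each other on the clock genes more than on most probe sets. The median gap between them was 0.51 on the log2 scale for the 16 clock probe sets, against 0.23 for all. It exceeded 0.4 for 12 of 16 (75%), against 27.6% of all. Among these were both Npas2 probe sets and the dimmer ones of Per2 and Per3, at or near background. By brightest probe sets the median gap was 0.48 for the clock genes. It was 0.75 for the muscle, 0.54 for the cartilage and 0.47 for the tendon markers, and smaller in every other list used here. A gap of this size was thus not particular to the clock genes. Wildtype pool 2 was the higher of the pair on 9 of 16, so the gap had no common direction: Per2 (0.97), Dbp (0.84 and 0.99) and Per3 (0.70) were higher in pool 2 on their bright probe sets, and Per1 (0.53) and Nr1d1 (0.49) were higher in pool 1. Double-null pools 1 and 2, which share an array type, were 0.21 apart at the median on the clock probe sets and on all probe sets alike. The wildtype pools lie on different array types, so pool and array type cannot be told apart there. Double-null pool 3, on type A with wildtype pool 2, lay 0.35 from it at the median, against 0.20 over all probe sets.

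For a reading of sampling time, each gene's brightest probe set was centred on its mean over the 5 arrays, and the mean of Per1, Per2, Per3, Nr1d1 and Dbp was taken from that of Arntl, Clock and Npas2. For the wildtype pools this arm index was 0.061 and -0.13, and for double-null pools 1 to 3 it was -0.15, -0.051 and 0.27. Double-null pool 3 was highest and double-null pool 1 lowest, and the groups overlapped. Group means were -0.034 ± 0.13 for wildtype (SD, n = 2) and 0.023 ± 0.22 for double-null (n = 3), a difference of 0.057, which is smaller than the spread between pools of a genotype. Within type A the difference was 0.40, and within type B it was -0.16. Without Clock and Per1 in the arms it was -0.040, and leaving out single pools it ran from -0.068 to 0.15, below zero without wildtype pool 2 or double-null pool 3. Npas2, at background, is 1 of 3 genes in the Arntl arm, and in double-null pool 3 it stood at 0.33 where Arntl stood at -0.053 and Clock at 0.050. With Npas2 left out, a choice made after its values were seen, the index was 0.17 and -0.19 in the wildtype pools and -0.063, -0.071 and 0.16 in double-null pools 1 to 3. Wildtype pool 1 was then the highest, and the group difference was 0.023.

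The index averages over genes whose values lay on opposite sides of their means in the same pool. The span of the Arntl, Clock and Npas2 mean over the arrays was 0.18, and that of the Per and Dbp arm 0.33, although single genes of that arm spanned up to 1.08. In wildtype pool 1, Per1 stood 0.64 above its mean while Per2 stood at -0.58, Dbp at -0.55 and Per3 at -0.32. In double-null pool 3, Nr1d1 stood at 0.60 while Per2 stood at -0.63 and Per3 at -0.42. In a running clock Nr1d1 peaks ahead of Per2, but whether sampling time bears on these values was not tested. Arntl ran only from -0.077 in wildtype pool 1 to 0.094 in double-null pool 2 around its mean.

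**Figure D3:**
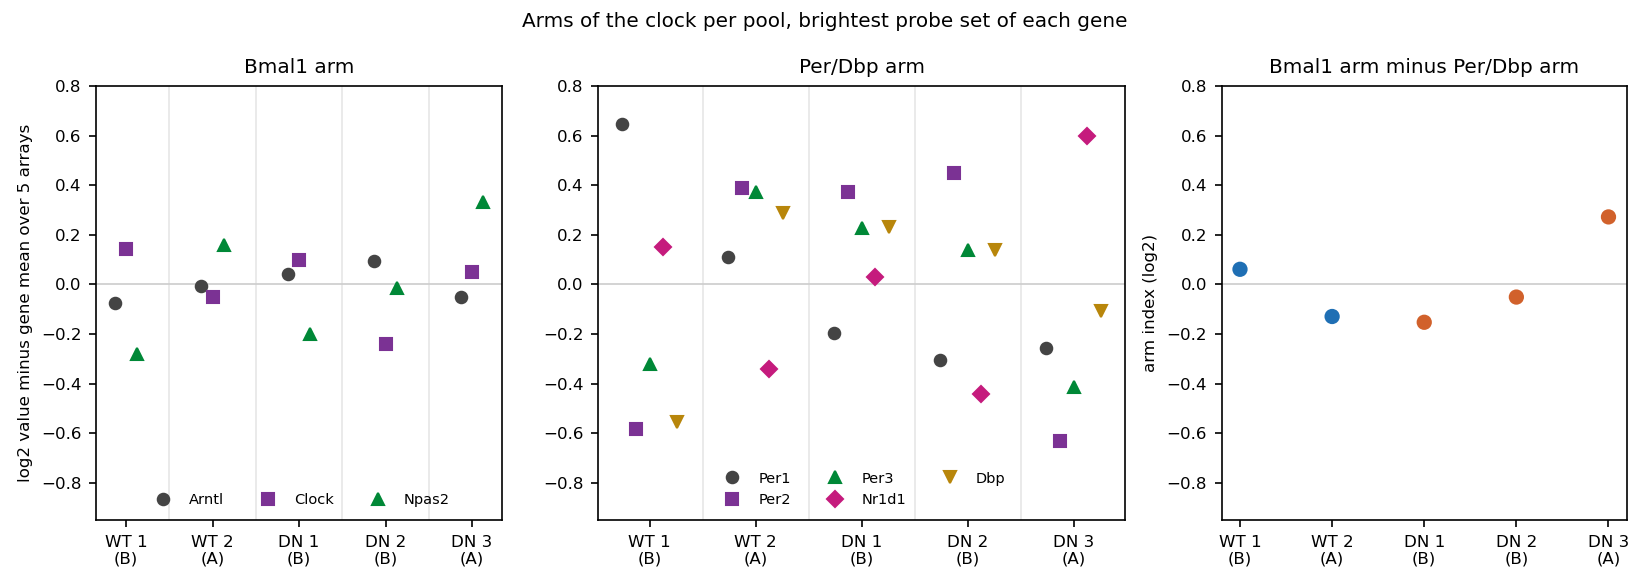
Left and middle, log2 value of each gene's brightest probe set minus its mean over the 5 arrays, for the Arntl, Clock and Npas2 arm and for the Per and Dbp arm; right, the arm index of each pool, blue for wildtype and orange for double-null. Genes of the Per and Dbp arm spread in both directions in wildtype pool 1 and double-null pool 3, and the index runs from -0.15 to 0.27 with the genotypes overlapping.

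Other genes of the clock loop were read from a list of 23, of which 17 were measured. None passed (0 of 17). At an unadjusted limma p under 0.05 there were 2 of 17, against 5.42% of all genes. Of the differences 10 lay above zero and 7 below, and the median was 0.026, against -0.012 over all genes. Rorb, a nuclear receptor that acts on ROR elements, had the smallest p, at 90.8 and 39.2 against 10.2, 43.4 and 11.2, and exceeded the background on 2 arrays only. Fbxw11, of the ubiquitin ligase that marks PER for decay, read 661 ± 86.7 against 894 ± 111, a difference of 0.39 (limma adjusted p = 0.92), but its other probe sets were at -0.20 and 0.11. Bhlhe40, a repressor at E-boxes, was at 0.34, and Csnk1d, a kinase of PER, was at 0.29 on the brightest of 5 probe sets that ran from -0.20 to 0.43. Nr1d2, the close relative of Nr1d1, was singled out after its values were seen. Its bright probe set read 331 and 622 in wildtype and 739, 611 and 469 in double-null pools, so wildtype pool 1 and double-null pool 3 were the lowest, as for Per2, Per3 and Cry1 and unlike Nr1d1. Its dim second probe set, above background on 2 arrays, read 11.5 and 15.4 against 70.6, 12.9 and 60.6 and did not share that order.

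Genes downstream of the clock in many tissues formed a second list, with 10 of 14 measured. None passed (0 of 10), and 2 of 10 had an unadjusted limma p under 0.05, against 5.42% of all genes. Of the 10 differences 8 were below zero and 2 above, with a median of -0.090. The groups did not overlap, with double-null lower, for 4 of 10, against 10.8% of all genes: Tsc22d3, Pnpla2, Pdk4 and Tspo. Of these, Tsc22d3 and Pdk4 are also in the glucocorticoid list described next. The list was chosen with earlier results of these data known, so nothing is read from that count. Tsc22d3, a mediator of glucocorticoid action, read 794 and 989 in wildtype and 614, 621 and 437 in double-null pools (-0.70, limma adjusted p = 0.79), and its other probe sets were at -0.46 and -0.045, the last with overlap. Pnpla2, a triglyceride lipase, was at -0.46, and its dim second probe set, above background on 2 arrays, was at 0.042 with overlap. Pdk4, a mitochondrial kinase of fasting, was at -0.41. Tspo, a mitochondrial membrane protein, was at -0.30, with its other probe sets at 0.039 and -0.13 and overlapping. Usp2, a rhythmic deubiquitinase that was singled out after its values were seen, was highest in wildtype pool 2 on both probe sets, as Dbp was, at 458 and 301.

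Because Per1 is induced by glucocorticoids, genes of that response were set beside it. Of 12 such genes, all measured and Per1 among them, 0 passed and 4 had an unadjusted limma p under 0.05, against 5.42% of all genes: Tsc22d3, Ddit4, Fkbp5 and Per1, each with lower values in the double-null pools. Ddit4 was already known to be low in these data when the list was drawn up. Fkbp5, a co-chaperone of the glucocorticoid receptor, read 581 and 472 in wildtype and 386, 341 and 356 in double-null pools, with no overlap (-0.53 ± 0.16 SE, limma adjusted p = 0.79). Its second probe set was at -0.59 with overlap. Ddit4, an inhibitor of mTOR signalling, read 573 and 708 against 221, 438 and 320, with no overlap (-0.92 ± 0.27, limma adjusted p = 0.79). With Per1 and Pdk4, 5 of 12 had every double-null array below both wildtype arrays, against 10.8% of all genes by their brightest probe sets. Since Per1 prompted the list and Ddit4 was known to be low, nothing is read from that count.

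Of the other 7 genes, 4 were above zero and 3 below. Sgk1, a kinase induced by glucocorticoids, was at 0.48 (limma adjusted p = 0.92), with -0.076 within type A and 0.90 within type B. Errfi1 was at 0.37, Dusp1 at 0.13, Mt1 at 0.0027, Zbtb16 at -0.0072, Klf9 at -0.029 and Mt2 at -0.12. The median of the 12 was -0.075, and 8 of 12 were below zero. Over the 17 alternative settings between 7 and 9 of its fitted genes were below zero, and the lowest limma adjusted p of any was 0.28.

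**Figure D4:**
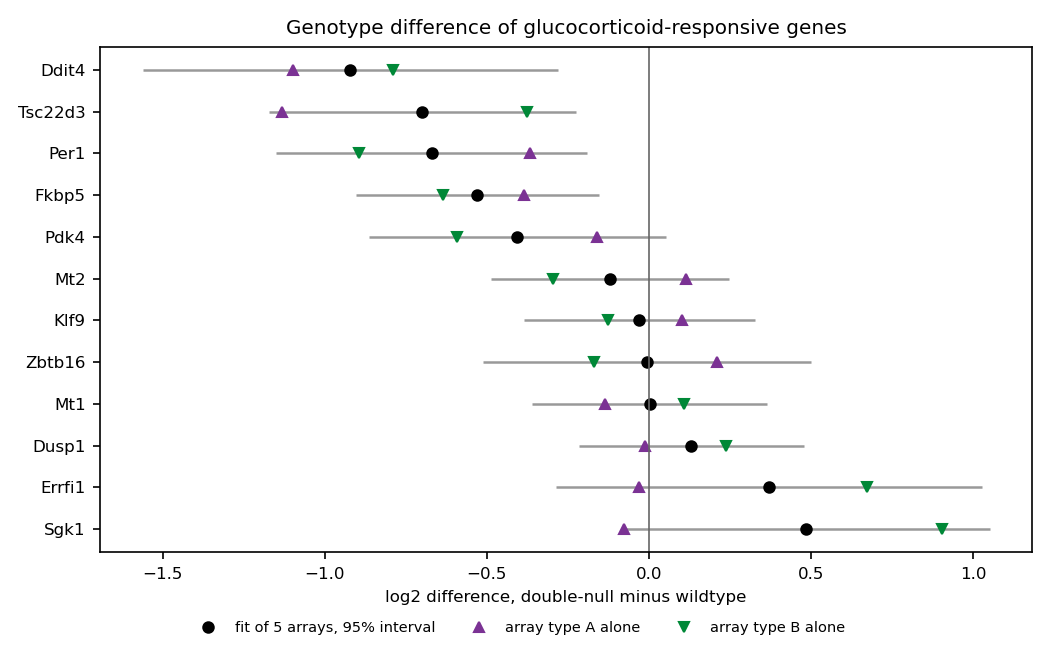
Log2 difference, double-null minus wildtype, of 12 glucocorticoid-responsive genes including Per1, from the fit of 5 arrays (black points, grey lines for the 95% interval) and on array types A and B alone (triangles). Ddit4, Tsc22d3, Per1 and Fkbp5 lie below zero on both types, at -0.92 to -0.53 in the fit, and Errfi1 and Sgk1 lie above zero within type B and just below it within type A.

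Immediate early genes, which rise within minutes of handling or stress and include targets of cyclic AMP signalling, as Per1 is, were set beside it too. Of 12 genes 9 were above zero and 3 below, and 0 passed. Against 5.42% of all genes, 1 of the 12 had an unadjusted limma p under 0.05. That was Fos, at 247 and 301 in wildtype and 585, 572 and 328 in double-null pools, with no overlap (0.70, limma adjusted p = 0.87), with 0.12 within type A against 1.13 within type B. Btg2 was at 0.30, with overlap and with a second probe set at -0.11. Ier2 (-0.25) and Zfp36 (-0.22) had every double-null array below both wildtype arrays, against 10.8% of all genes. Fos and Egr2 (0.30), the latter named after its values were seen, had every one above, against 8.92%. The groups were thus apart for 4 of 12 genes, in both directions. This list too was chosen with earlier results of these data known, and nothing is read from that count.

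Summed signals of some tissue markers also differed in range between the genotypes, as Per1 did. The sums are of deposited signals without normalisation. On the normalised scale every double-null array lay below both wildtype arrays for 10.8% of all genes, and above both for 8.92%. The 4 of 5 measured tendon markers summed to 803 and 1037 in the wildtype pools and to between 1861 and 1945 in the double-null pools. The 3 of 5 measured adipocyte markers summed to between 3750 and 3781 against 3143 to 3290. Of these only Fabp4 was itself apart (-0.38 on its brightest probe set, its other probe sets overlapping). Adipoq was at 0.058 and Retn at -0.19, both with overlap. The 4 genes of liver and brain, taken as not belonging to the joint, summed to 306 and 435 in the wildtype pools against 278 to 301. Of these only Gfap was itself apart, while Alb, Apoa1 and Syn1 overlapped. Sums of the muscle, cartilage, bone and neutrophil markers overlapped between the groups. The 3 of 5 measured erythroid markers summed to 11350 and 13187 against 13207 to 13519, but Hba-a1, Alas2 and Slc4a1 each overlapped. Their part in the level of Per1 was not tested.

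The genes whose profile over the 5 arrays was most like that of a member were sought among 7436 genes by the root mean square difference of standardised values. Nearest to Dbp were Chtop (0.058), Hdac1 (0.088), Vps26c (0.11) and Ahctf1 (0.11). Chtop, an mRNA export factor, read 729 and 867 in wildtype and 906, 847 and 793 in double-null pools. That profile shares with Dbp its low value in wildtype pool 1, but not the size of the swing. Nearest to Arntl were Slc38a10 (0.061), Irgm2 (0.066), Ncbp3 (0.076) and 3110040N11Rik (0.081), and since Arntl itself hardly varied, likeness there concerns small differences. With 5 arrays such likeness is a description only.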

How the data were processed

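Per the labels' protocols, joint RNA was purified by Trizol and a column step and labelled with biotin for Affymetrix arrays. The deposited values are linear signal intensities, 1 per probe set. The submitters' processing notes name MAS5 without a version or scaling target. Depth has no counterpart beyond the number of arrays, which limits the precision. The 2% trimmed mean was close to 250.1 on every array. No source used here says whether the 2 tables differ by array, batch or record only.

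Of 22690 probe sets, 20393 had 1 gene symbol, 691 several and 1606 none. Values were taken as log2(signal + 32), quantile normalised over the 5 arrays, and fitted without a filter with limma 3.58.1 in R 4.3.3 (intensity trend, 2 residual and 4.57 prior degrees of freedom). The fit was also run on simulated data with independent noise. Such a run cannot show how the fit behaves where probe sets vary together within a pool, and nothing is read from it. A gene's brightest probe set has the highest mean over all arrays. No detection calls were used. All members were named. From each other list, genes past the threshold and the 4 with the smallest p were named, with those said to be singled out. Members and lists were chosen with earlier results of these data known. Alternatives were other scaling, pseudocounts, filters, probe-set summaries, models and pools left out.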

Additional observations from a re-analysis of the deposited data

How the results depend on the processing

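The count of clock probe sets past the threshold was 0 under all 17 alternative settings, and Per1 and Cry2 stayed below zero in each that fitted them (Per1 -0.90 to -0.37). Over all probe sets, 6 passed in the main setting, 18 with a filter at the 40th percentile and 19 at the 60th. With the brightest probe set per gene, also filtered at the 40th percentile, 10 passed. There were 1 with the mean over probe sets and 3 with the replicate block. Without double-null pools 1, 2 and 3 in turn, 5, 8 and 0 passed. Counts from fits with 1 wildtype pool left are not given. The arm index difference, 0.057 in the main setting, was -0.16 on array type B alone and 0.15 with the 60th percentile filter, and without single pools it ran from -0.068 to 0.15, turning sign without wildtype pool 2 (-0.038) or double-null pool 3. With the replicate block in place of the array-type term, Npas2 was at -0.047, Per3 at 0.16, Nr1d1 at -0.11 and Cry1 at 0.012, reversed from the main setting. Deviations of same-numbered pools from their genotype means correlated at 0.0074 and -0.11. With only 2 wildtype pools their deviations mirror each other, so these values cannot decide whether the numbers pair samples. On array type B alone Per3 was at 0.50, Nr1d1 at -0.36 and Cry1 at 0.25, and with the mean over probe sets Npas2 was at -0.060. Without single pools Arntl ran from -0.045 to 0.14, Clock from -0.21 to 0.10, Per2 from -1.02 to 0.99, Per3 from -0.79 to 0.50, Nr1d1 from -0.36 to 0.94, Dbp from -0.40 to 0.74 and Cry1 from -0.59 to 0.25. A type left with 1 genotype adds nothing to the contrast. The estimate without wildtype pool 1 is therefore that of type A, and without either pool of type A that of type B. The cause of the other reversals was not tested. The arm index involves no fit, so settings of the model alone give it no value, and probe sets below a filter have none. Signals at background limit Npas2 and the dimmer Per2 and Per3 probe sets.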
